A study of Mus musculus with 11 samples.

Results

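The genes studied encode the peptide hormones of the anterior pituitary: growth hormone (Gh), prolactin (Prl), the corticotropin precursor (Pomc), and the subunits of the glycoprotein hormones (Cga, Tshb, Lhb and Fshb). They were chosen by symbol, as the rows of the deposited count table that carry these names. They number 7 of the 56941 genes in the table. Transcripts were measured by RNA sequencing of cells that had been flow-sorted from mouse pituitary, in 5 libraries whose genotype is given as APC-mutant (replicates 1, 2, 4, 5 and 6) and 6 given as wildtype (replicates 1 to 6). APC is a scaffold of the complex that degrades beta-catenin. All libraries share the tissue, the use of a flow sort, an amplification of the RNA and a poly(A) selection. Whether both genotypes were sorted with the same gate is not known. The sample titles add the word Lef1 to the mutant libraries, and the library names begin with JS for the mutant cells, with ROSAJC for wildtype replicates 1 to 4 and with ROSAE for wildtype replicates 5 and 6. The labels give neither the altered part of Apc, the Cre driver, the strain, the age, the sorting gate nor the meaning of these name prefixes, and they leave unsaid if each library is from an animal of its own. The p-values below reflect only how far libraries of a genotype differ, part of which may be technical. Since every mutant library carries the JS prefix, a difference tied to that prefix and one tied to genotype cannot be told apart.

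Each hormone is made by a specialised cell type. Somatotropes secrete growth hormone, lactotropes prolactin, corticotropes corticotropin cut from the POMC precursor, thyrotropes thyroid-stimulating hormone, and gonadotropes luteinising and follicle-stimulating hormone. Melanotropes of the intermediate lobe also express Pomc and cut the precursor further, to melanocyte-stimulating hormone. The glycoprotein hormones are dimers of one common alpha subunit, the product of Cga, with a beta subunit that gives each hormone its identity. The transcription factor POU1F1 is required in mouse for somatotropes, lactotropes and thyrotropes, TBX19 for Pomc expression in corticotropes and melanotropes, and NR5A1 for the gonadotropin genes.

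The sequences upstream of these genes are shown because the genes are read by different lineage factors. RefSeq promoter windows of the GRCm38.p6 build were matched by symbol for 6 of the 7 genes, all but Gh. The search covered the 250 bases upstream of the annotated start site on both strands. Tshb and Cga are printed as the subunits of one hormone, Prl and Lhb as genes whose window held a match to a lineage factor motif. Each sequence is the 200 bases that end at the start site, in the direction of transcription, and capitals mark the motif matches. They lie at chr3:102782715-102782914 (minus strand), chr4:34893579-34893778 (plus strand), chr13:27057370-27057569 (plus strand) and chr7:45420746-45420945 (plus strand).
Tshb: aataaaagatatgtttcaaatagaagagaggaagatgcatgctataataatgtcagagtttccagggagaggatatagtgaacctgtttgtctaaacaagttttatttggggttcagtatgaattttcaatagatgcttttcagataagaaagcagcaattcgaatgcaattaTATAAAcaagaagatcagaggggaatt
Cga: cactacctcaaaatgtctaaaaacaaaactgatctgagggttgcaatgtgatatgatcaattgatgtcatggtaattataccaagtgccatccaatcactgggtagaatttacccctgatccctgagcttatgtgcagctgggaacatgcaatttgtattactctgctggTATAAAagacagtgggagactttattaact
Prl: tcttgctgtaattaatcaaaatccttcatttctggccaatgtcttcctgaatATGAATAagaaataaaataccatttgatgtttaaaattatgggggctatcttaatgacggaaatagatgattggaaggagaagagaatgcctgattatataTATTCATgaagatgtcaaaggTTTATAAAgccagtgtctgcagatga
Lhb: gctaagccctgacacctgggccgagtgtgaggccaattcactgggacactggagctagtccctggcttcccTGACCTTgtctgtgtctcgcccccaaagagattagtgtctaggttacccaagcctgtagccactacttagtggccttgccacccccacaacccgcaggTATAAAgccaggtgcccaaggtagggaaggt
The TATA box letters TATAAA stood in all 6 windows, where 12.4% of the 32851 windows in the table hold them. The closest match to the start site began at -30 in Cga and Fshb, -31 in Lhb, -27 in Tshb, -25 in Pomc and -24 in Prl. In Prl the same letters on the other strand overlap that match, so the run is printed as TTTATAAA. The POU1F1 core ATGNATA, found in 7.92% of all windows, matched in Prl alone among the 6, at -148 and, on the other strand, at -47. The NR5A1 letters AAGGTCA, found in 4.08% of all windows, matched in Lhb at -129 on the other strand and in Pomc at -63. The T-box letters TCACACC (3.33% of all windows) and the TCF/LEF letters CTTTGAT (3.21%) matched in none of the 6 windows. Matches of letters are a description and not a measurement of binding.

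All hormone genes stood lower in the mutant cells, by ratios of mean levels that ran from 8.51 for Cga to 22455 for Gh. The 7 genes passed the filter on low counts, and edgeR's quasi-likelihood test called 7 of 7 lower and 0 higher at a Benjamini-Hochberg adjusted p under 0.05. Of all 20622 genes tested, 28.5% were called lower and 30.7% higher. The 2 genotypes did not overlap for 7 of 7 hormone genes, against 20.0% of tested genes with every mutant library below every wildtype library. The median log2 fold change, APC-mutant minus wildtype, was -5.56 over the hormone genes and 0.02 over all tested genes. Together the 7 genes took 7.67% ± 1.20 (SD, n = 6) of all counts in wildtype, with a range of 5.86 to 9.53%, and 0.0308% ± 0.0172 (SD, n = 5) in the mutant libraries, with a range of 0.00898 to 0.0510%. In sorted bulk cells, fewer cells of a type and less RNA per cell cannot be told apart.

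**Figure D1:**
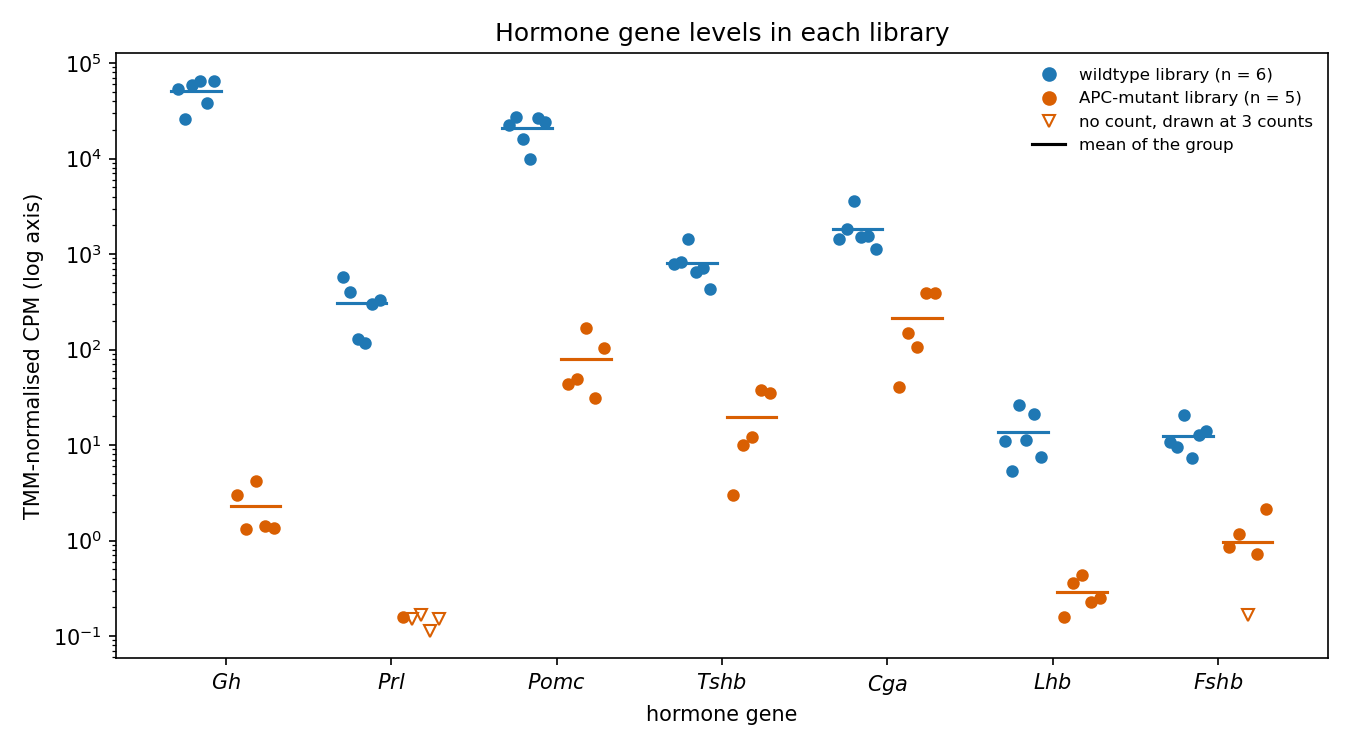
Level of each hormone gene in every library, as TMM-normalised CPM on a log axis; points are libraries, horizontal lines are group means, and open triangles mark libraries with no count, drawn at the level of 3 counts. The 5 mutant libraries lie below the 6 wildtype libraries for every gene, with the narrowest separation for Cga and the widest for Gh; no mean is drawn for Prl in the mutant group, where 4 libraries had no count.

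Gh, the somatotrope product (ENSMUSG00000020713.7, chromosome 11, 106191097 to 106192691, minus strand, GRCm39), was the most abundant transcript of the wildtype cells by mean level. Levels are given in CPM, which puts the counts of all libraries on one total, with TMM factors applied. The level of Gh was 53284, 25683, 58783, 65128, 37846 and 65723 CPM in wildtype replicates 1 to 6. In mutant replicates 1, 2, 4, 5 and 6 it was 3.03, 1.32, 4.25, 1.41 and 1.37 CPM, from 57, 26, 77, 37 and 27 counts. The lowest wildtype library thus stood 6047 times above the highest mutant library. Gh fell by 14.47 ± 0.54 on the log2 scale (SE, edgeR adjusted p = 1.26e-10), rank 1 among all falls. Within wildtype the level varied 2.56-fold, with replicate 2 lowest, and within the mutant group 3.22-fold, with replicate 4 highest.

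Prl, the lactotrope product and a relative of growth hormone (ENSMUSG00000021342.15, chromosome 13, 27241553 to 27249188, plus strand), was far less abundant. In wildtype its level was lowest in replicate 4, at 118 CPM, had a median of 315 CPM and was highest in replicate 1, at 571 CPM. In the mutant libraries it was 0.159 CPM in replicate 1, from 3 counts, and 0 in the other 4, where a count of 0 allows up to 3 counts, or 0.114 to 0.165 CPM by library. A single mutant library therefore holds all the Prl counts of its group. The ratio of normalised totals, wildtype over mutant, was 11185, with an exact 95% counting interval of 3827 to 54241, and the edgeR adjusted p was 4.52e-09. Without mutant replicate 1 no mutant count remains, and the wildtype level was at least 9135-fold higher, against 3 counts over the other mutant libraries. Prl varied 4.86-fold within wildtype, against 2.56-fold for Gh. The libraries also ordered differently, since wildtype replicate 4 was lowest for Prl and second highest for Gh.

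Pomc, the precursor made in corticotropes and melanotropes (ENSMUSG00000020660.7, chromosome 12, 4004951 to 4010642, plus strand), held rank 3 in mean level among the tested genes of wildtype. Its level was 9798 CPM in the lowest wildtype library, replicate 4, with a median of 23210.2 and a highest value of 27558 CPM in replicate 2. In mutant replicates 1, 2, 4, 5 and 6 it was 43.6, 49.7, 166, 31.1 and 105 CPM. Replicate 4 was the highest mutant library, as it was for Gh, and the lowest wildtype library stood 58.9 times above it. The mean fell from 21027 ± 6883 (SD, n = 6) to 79.1 ± 56.3 CPM (SD, n = 5), a log2 fold change of -8.06 ± 0.55 (SE, edgeR adjusted p = 2.28e-08). Fragments of Pomc were therefore counted in every mutant library, from 817 to 3016 of them.

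Tshb encodes the beta subunit of thyroid-stimulating hormone (ENSMUSG00000027857.11, chromosome 3, 102682781 to 102690034, minus strand). Its level was 778, 833, 1438, 653, 716 and 430.3 CPM in wildtype replicates 1 to 6. In mutant replicates 1, 2, 4, 5 and 6 it was 3.03, 10.1, 12.2, 37.7 and 35.4 CPM. The mutant libraries thus differed 12.5-fold among themselves, against 3.34-fold within wildtype, and still lay below every wildtype library. Tshb fell by 5.35 ± 0.60 on the log2 scale (SE, edgeR adjusted p = 3.04e-06).

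Cga encodes the alpha subunit shared by the glycoprotein hormones (ENSMUSG00000028298.11, chromosome 4, 34893779 to 34907370, plus strand). It stood at 1443, 1814, 3590.1, 1523, 1535 and 1124 CPM in wildtype replicates 1 to 6, and at 40.7, 148, 106, 392 and 393 CPM in mutant replicates 1, 2, 4, 5 and 6. The genotypes did not overlap, but the lowest wildtype library was only 2.86 times the highest mutant library. Cga fell from 1838 ± 886 (SD, n = 6) to 216 ± 166 CPM (SD, n = 5), a log2 fold change of -3.09 ± 0.53 (SE, edgeR adjusted p = 0.000172), rank 973 among all falls. It held rank 24 in mean level among the tested genes of wildtype and rank 821 in the mutant libraries, where Pomc was at 3072, Tshb at 9023 and Gh at 15562. Counting did not use strand, and 305 exonic bases of Cga, or 32.0%, overlap the antisense gene Platr9, so fragments of this pair cannot be told apart there. Platr9 counts equalled 66.7 to 71.2% of the Cga counts in every library of both genotypes.

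Lhb and Fshb encode the gonadotropin beta subunits and were the least abundant hormone genes of wildtype. Lhb (ENSMUSG00000100916.4, chromosome 7, 45070244 to 45071321, plus strand) ranged from 5.33 CPM in wildtype replicate 2 through a median of 11.2 to 26.1 CPM in replicate 3. Its mutant libraries 1, 2, 4, 5 and 6 had 0.159, 0.356, 0.441, 0.228 and 0.253 CPM, each from 3 to 8 counts. The ratio of normalised totals, wildtype over mutant, was 45.3, with an exact 95% counting interval of 31.4 to 67.9 (edgeR log2 fold change -5.56 ± 0.49, SE, adjusted p = 3.19e-07). Of the Lhb exonic bases 93.7% are shared with the gene ENSMUSG00000118462.2 on the same strand, and 20.4% overlap the antisense gene Ruvbl2, so the counts of Lhb may include fragments of either. ENSMUSG00000118462.2 had 164 to 422 counts in wildtype and 0 to 4 in the mutant libraries. Ruvbl2, a helicase gene, was at 80.1 to 112 CPM in wildtype and 58.0 to 84.5 CPM in the mutant libraries.

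Fshb (ENSMUSG00000027120.7, chromosome 2, 106886485 to 106890001, minus strand) stood at 7.37 CPM in the lowest wildtype library, replicate 4, with a median of 11.8 and a highest value of 20.5 CPM in replicate 3. In mutant replicates 1, 2, 4, 5 and 6 it was 0.850, 1.17, 0, 0.723 and 2.13 CPM. The genotypes did not overlap, and mutant replicate 4 had no Fshb count although it had the most Lhb counts of its group. Fshb fell by 3.68 ± 0.56 on the log2 scale (SE, edgeR adjusted p = 5.87e-05), from 12.5 ± 4.58 (SD, n = 6) to 0.974 ± 0.773 CPM (SD, n = 5). Counts of 0 to 42 per mutant library limit the precision of this value.

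The unequal falls were compared within libraries, since a ratio of 2 genes in one library does not depend on how libraries are scaled. Of the hormone genes, Gh, Pomc, Tshb and Cga had at least 10 counts in every library, which gave 6 pairs. With 5 against 6 libraries the smallest two-sided p an exact permutation test can give is 0.00433, and it was reached by 5 of the 6 pairs (adjusted over the 6 pairs, 0.00519). Tshb counts amounted to 53.9, 45.9, 40.1, 42.9, 46.7 and 38.3% of the Cga counts in wildtype replicates 1 to 6. In mutant replicates 1, 2, 4, 5 and 6 they amounted to 7.45, 6.80, 11.5, 9.62 and 9.01%. The specific subunit thus stood lower against the common subunit in all 5 mutant libraries, a difference of -2.35 in mean log2 ratio, without overlap between genotypes. How much of the Cga count comes from Platr9 cannot be told from these counts, so the overlap limits this ratio.

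Gh stood above Pomc per kilobase of exon in every wildtype library, by 1.42-fold in replicate 2 to 10.2-fold in replicate 4. In the mutant libraries the order was turned, with Gh at 0.0200 to 0.106 times Pomc. This difference of -6.31 in mean log2 ratio, that of -11.13 for Gh to Cga, that of -8.78 for Gh to Tshb and that of -4.82 for Pomc to Cga each reached the smallest exact permutation p given above, without overlap between genotypes. Single libraries moved some of these values by over 1.5 times: without mutant replicate 1, Gh to Tshb was -9.47 and Gh to Cga -11.76, and without mutant replicate 5, Pomc to Cga was -4.22. Pomc to Tshb was the exception, with overlapping values, a difference of -2.47 and an exact permutation p of 0.0173 (adjusted over the 6 pairs, 0.0173), and without mutant replicate 5 the difference was -1.84. It lost the call against the ROSAJC libraries alone (-2.07, adjusted p = 0.0635) and without the least alike library of each genotype, mutant replicate 5 and wildtype replicate 2 (-1.77, adjusted p = 0.0635, exact permutation tests). The hormone genes therefore did not fall by one common factor: Gh fell more than Pomc, and Cga less than Gh, Pomc and Tshb.

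**Figure D2:**
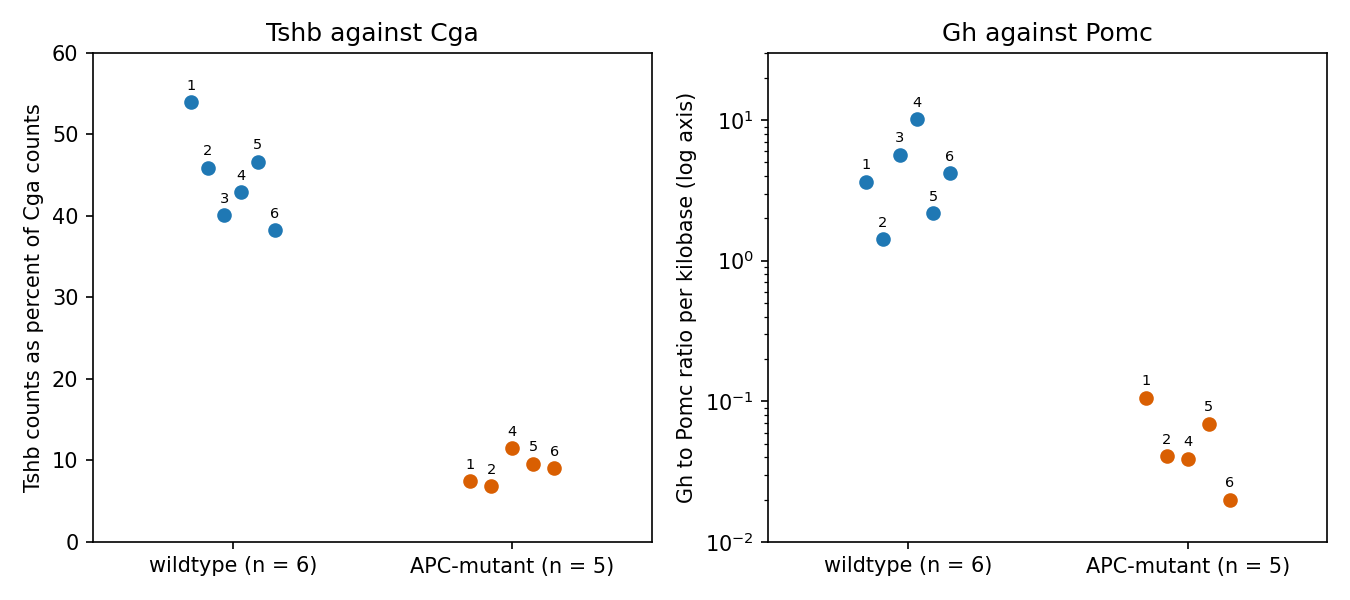
Within-library ratios of hormone genes, with 1 point per library labelled by its replicate number; left, Tshb counts as a percentage of Cga counts; right, the Gh to Pomc ratio per kilobase of exon on a log axis. The wildtype libraries lie between 38.3 and 53.9% at left and above 1 at right, and the mutant libraries lie between 6.80 and 11.5% at left and at or below 0.106 at right.

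Levels of different genes were compared per kilobase of annotated exon. In wildtype the order was Gh at 59251 ± 18678 CPM per kilobase, Pomc at 15954 ± 5222, Cga at 1927 ± 929, Prl at 219 ± 122, Tshb at 177 ± 74.4, Lhb at 20.3 ± 12.0 and Fshb at 7.84 ± 2.86 (SD, n = 6). Each gene stood above the next in 6 of 6 wildtype libraries, except that Prl exceeded Tshb in 4 of 6, a mean log2 difference of 0.18 ± 1.23 (SD) that lies within the spread. That pair also depends on the length used, because 4555 exonic bases are annotated for Tshb while its coding transcripts have a median length of 552 bases. With the median length of the coding transcripts, taken from the GENCODE M21 annotation, Tshb stood above Prl in 6 of 6 libraries, at 1464 against 348 CPM per kilobase.

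In the mutant libraries Cga came first, at 226 ± 174 CPM per kilobase, ahead of Pomc, which ran from 23.6 to 126 CPM per kilobase and stood below Cga in 4 of 5 libraries. Tshb at 4.32 ± 3.47 and Gh at 2.64 ± 1.53 followed, and Tshb was the higher of them in 3 of 5 libraries. This pair too depends on the length used, since with the median length of the coding transcripts Tshb stood at 35.7 CPM per kilobase and above Gh in 5 of 5 mutant libraries. Fshb at 0.608 ± 0.483, Lhb at 0.424 ± 0.164 and Prl at 0.0226 ± 0.0506 CPM per kilobase came last (SD, n = 5). The gene with the highest mean level per length thus differed between the genotypes, Gh in wildtype and Cga in the mutant cells. The lead of Cga over Pomc in the mutant libraries was a mean log2 difference of 1.74 ± 1.72 (SD), about as large as its spread. Without division by length it held in 3 of 5 libraries, and the Cga counts may include fragments of Platr9.

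The patterns of the hormone genes over libraries of one genotype were compared in pairs. The likeness of 2 genes was measured as the root mean square difference of their log2 CPM after each gene's mean over the libraries was taken off, so that 0 means the same pattern. Over the 6 wildtype libraries Tshb and Cga were the closest pair, at 0.16, followed by Cga and Fshb at 0.47 and Prl and Pomc at 0.50, and Prl and Lhb were the farthest apart, at 1.41. Over all genes compared, the median value was 0.57 to Tshb, 0.57 to Cga, 0.53 to Fshb, 0.59 to Pomc and 0.88 to Prl. Tshb and Cga thus lay well below these medians, and Cga and Fshb lay near them. Wildtype replicate 3 was highest for Tshb, Cga, Lhb and Fshb, while for Prl and Pomc it was the second lowest library. Gnrhr, the receptor through which gonadotropes are stimulated, and Trhr, the receptor for thyrotropin-releasing hormone, were also highest there, at 46.3 and 18.0 CPM, against 13.3 to 28.0 and 4.60 to 14.2 CPM in the other wildtype libraries. Among transcription factors of these cell types, Nr5a1 was highest there too, at 24.8 CPM. Gata2, however, was highest in wildtype replicate 4, at 38.2 CPM, and Pou1f1 in wildtype replicate 6, at 538 CPM. The granule protein genes Chga and Scg2 were also highest in wildtype replicate 3, at 3071 and 4571 CPM.

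Tshb and Cga also varied together over the 5 mutant libraries, at a likeness of 0.27, against 1.83 for Gh and Tshb and 1.53 for Pomc and Tshb. Mutant replicate 1 was lowest and replicates 5 and 6 were highest for both. The granin gene Chga, whose product is packed with hormones in secretory granules, was likewise lowest in replicate 1 and highest in replicates 5 and 6, at 68.3, 441, 274, 991 and 899 CPM in mutant replicates 1, 2, 4, 5 and 6. Another granin gene, Scg2, stood at 83.8, 190.2, 123, 374 and 319 CPM there. Gh and Pomc each followed another order, at a likeness to each other of 0.81. Both had replicate 4 highest, but replicate 1 was second highest for Gh and second lowest for Pomc.

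**Figure D3:**
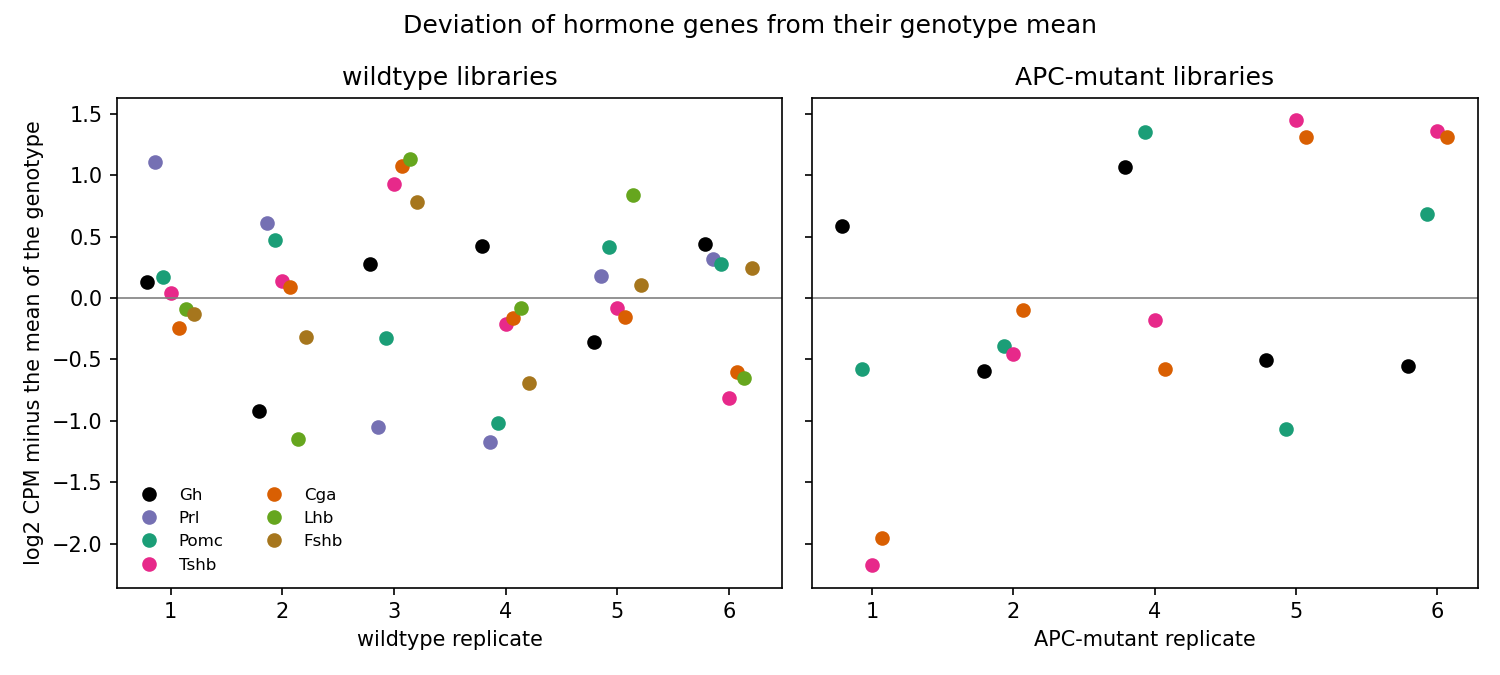
Deviation of each hormone gene from its mean over the libraries of one genotype, in log2 CPM, for the 6 wildtype libraries at left and the 5 mutant libraries at right; at right only the 4 genes with at least 10 counts in every library are drawn. Tshb and Cga are both high in wildtype replicate 3 and in mutant replicates 5 and 6 and both low in mutant replicate 1, while in mutant replicate 2 Tshb (-0.45) lies nearer to Gh (-0.60) and Pomc (-0.39) than to Cga (-0.09).

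Among 11741 other genes with a wildtype mean of at least 5 CPM, those with the most alike pattern over the 6 wildtype libraries were named for each hormone gene. Cga was closest to its antisense neighbour Platr9 (0.04), then to Resp18, which encodes a neuroendocrine secretory protein (0.12), and to Spock1 (0.23). Resp18 (0.16), Platr9 (0.17) and Acbd7 (0.23) were closest to Tshb. Fragments in the exonic bases that Cga and Platr9 share count for both genes, so the Platr9 pattern is not separate from that of Cga. Resp18 and Acbd7 were also lower in the mutant cells, by log2 fold changes of -2.18 ± 0.50 and -7.26 ± 0.36 (SE, edgeR adjusted p = 0.00189 and 1.15e-09). For Gh the closest were Rem2 (0.09), Bcl2l11 (0.10) and Josd1 (0.11), for Pomc Trim13 (0.10), Zfp133-ps (0.11) and Mdk (0.14), and for Prl Cdh10 (0.24), Ccdc15 (0.34) and Hspb11 (0.35). Lhb was nearest to Cldn4 (0.34), Fat4 (0.34) and Sertad1 (0.37), and Fshb to Timp1 (0.20), Vat1 (0.21) and Myo5b (0.23). The genes nearest Gh did not share its fall. Rem2 fell by 0.86 ± 0.26, Bcl2l11 rose by 0.83 ± 0.20 (SE, edgeR adjusted p = 0.0107 and 0.0027), and Josd1, at 0.33 ± 0.18, was not called. A pattern over 6 libraries is a description only.

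The machinery around the hormones was lower as well, though not evenly. Of 20 lineage factors of endocrine pituitary cells, 16 fell, 1 rose and 3 were not called, with a median log2 fold change of -3.18. Of the 4 most abundant in wildtype, Tbx19 fell from 326 ± 83.3 to 1.16 ± 0.966 CPM and Pou1f1 from 307 ± 135 to 0.388 ± 0.297 CPM (edgeR adjusted p = 2.47e-09 and 1.74e-09). The immediate early genes Egr1 and Nr4a1 were not called, at log2 fold changes of 0.03 ± 0.46 and 0.35 ± 0.51 (SE). Factors of early pituitary development, named after their values were seen, had smaller changes, though the difference was not tested. Pitx1 was at 127 ± 39.0 CPM in wildtype and 89.1 ± 18.1 in the mutant cells, and Lhx3 at 183 ± 48.8 and 60.6 ± 22.1 (log2 fold changes -0.51 and -1.60, edgeR adjusted p = 0.0378 and 2.93e-05).

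Markers were then taken by hormone cell type. For corticotropes 4 of 4 fell (Tbx19, Neurod1, Avpr1b and Crhr1), and their summed level was 371 to 756 CPM in wildtype and 1.65 to 5.87 CPM in the mutant libraries. For melanotropes 4 of 4 fell (Tbx19, Pcsk2, Drd2 and Pax7), from a summed 473 to 624.6 CPM to 1.75 to 5.87 CPM. For somatotropes and lactotropes 4 of 4 fell (Pou1f1, Ghrhr, Rxrg and Ghsr), from 389 to 960.0 CPM to 2.39 to 11.2 CPM. The first 2 of these lists share Tbx19, and Pou1f1 is also a thyrotrope marker below. Several marker genes also stand in the lineage factor list above and in the receptor and granule lists below. The counts of all these lists are therefore not separate evidence.

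The thyrotrope and gonadotrope markers did not all move one way. For thyrotropes Pou1f1, Dio2 and Trhr fell and Gata2 rose. For gonadotropes Gnrhr and Nr5a1 fell, Gata2 rose and Foxl2 was not called, at 4.73 ± 1.55 CPM in wildtype and 4.35 ± 1.06 in the mutant cells. Gnrhr was counted in 1 of 5 mutant libraries, replicate 6, at 0.253 CPM, and Trhr in 1 of 5, replicate 5, at 0.114 CPM, while Tshb was at 37.7 and 35.4 CPM in those replicates 5 and 6. Nr5a1 was at 13.9 ± 7.04 CPM in wildtype and 0.475 ± 0.187 in the mutant libraries. Gata2, a factor of thyrotropes and gonadotropes that endothelial and blood cells also express, rose from 22.0 ± 12.8 to 83.5 ± 14.5 CPM, a log2 fold change of 1.92 ± 0.35 (SE, edgeR adjusted p = 0.000293).

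Of 11 receptors that hormone cells carry, 9 fell, 0 rose and 2 were not called, with a median log2 fold change of -6.85. Most receive releasing or inhibiting factors, but Nr3c1 and Thrb, which both fell, are receptors for glucocorticoid and thyroid hormone. The 2 not called were the somatostatin receptor genes Sstr2 and Sstr5, at log2 fold changes of -1.35 ± 0.63 and -0.75 ± 0.47 (SE). Thrb, Sstr2 and Sstr5 were named after their values were seen. Ghrhr, which receives growth hormone-releasing hormone, was at 149 to 400.1 CPM in wildtype and had no count in 3 of 5 mutant libraries. Avpr1b, the vasopressin receptor of corticotropes, was at 64.7 ± 48.1 CPM and 0.0914 ± 0.154 CPM, and Crhr1, which receives corticotropin-releasing hormone, at 60.9 ± 9.48 and 0.528 ± 0.317 CPM. Nr3c1, the glucocorticoid receptor present in most cell types, moved by only -0.39 ± 0.10 (SE, edgeR adjusted p = 0.00399).

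Of 10 genes for prohormone processing and granule proteins, 9 fell, 0 rose and 1, the amidating enzyme gene Pam, was not called, with a median log2 fold change of -3.22. Scg2 fell from 2617 ± 1112 to 218 ± 125 CPM, Chga from 1776 ± 736 to 535 ± 399, Chgb from 671 ± 155 to 66.1 ± 42.3, and the carboxypeptidase gene Cpe from 749 ± 77.1 to 383 ± 74.3 CPM. The convertases that cut the POMC precursor differed in size of change. Pcsk2, needed for melanocyte-stimulating hormone, fell by 7.14 ± 0.34 on the log2 scale, and Pcsk1, needed for corticotropin and named after its value was seen, fell by 2.74 ± 0.35 (SE, edgeR adjusted p = 8.03e-10 and 9.92e-06). The difference between these changes was not tested.

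Other secreted peptides did not follow one direction. Of 13 peptide genes of endocrine and neural cells 10 were tested, and 5 fell, 2 rose and 3 were not called, with a median of -1.26. Gal, made in lactotropes and other pituitary cells, fell from 40.1 ± 19.2 to 4.72 ± 2.48 CPM, Cartpt from 27.6 ± 4.97 to 1.24 ± 0.766 and Pdyn from 13.4 ± 2.83 to 0.2996 ± 0.299 CPM. Penk was not called, at 28.9 ± 8.22 and 20.7 ± 14.8 CPM. Npy and Nts, singled out after their values were seen, rose to 13.8 ± 4.64 and 5.13 ± 2.37 CPM in the mutant cells, from 0.526 ± 0.525 and 0.108 ± 0.148 CPM.

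Most relatives of the hormone genes were nearly silent, but Gpha2 was not. Of 27 genes for thyrostimulin subunits and prolactin family members, 21 had no count in any library and 2 were tested. Gpha2, the alpha subunit of thyrostimulin, fell from 15.7 ± 6.48 to 0.723 ± 0.307 CPM, a log2 fold change of -4.41 ± 0.40 (SE, edgeR adjusted p = 3.97e-07). Gphb5, its beta subunit, was counted in 1 of 6 wildtype libraries, replicate 1, and in 5 of 5 mutant libraries, at 0.610 to 1.57 CPM. The pair of thyrostimulin subunits thus moved in opposite directions at these low levels.

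Receptors for the hormones and regulators of gonadotropes, 11 genes of which 7 were tested, gave 2 falls, 4 rises and 1 gene not called, with a median of 1.11. Over all tested genes 28.5% were called lower, near the share of falls here, and 30.7% higher. The prolactin receptor gene Prlr fell from 56.6 ± 8.86 to 1.44 ± 0.693 CPM, and the inhibin alpha gene Inha from 14.9 ± 6.22 to 4.96 ± 1.36 CPM. The growth hormone receptor gene Ghr rose from 24.2 ± 5.45 to 52.2 ± 13.8 CPM. The activin subunit genes Inhba and Inhbb and the activin antagonist gene Fst rose too (log2 fold changes 3.91, 2.67 and 1.24), and were named after their values were seen. Tshr was not called, at 4.79 ± 2.48 and 1.70 ± 1.39 CPM.

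**Figure D4:**
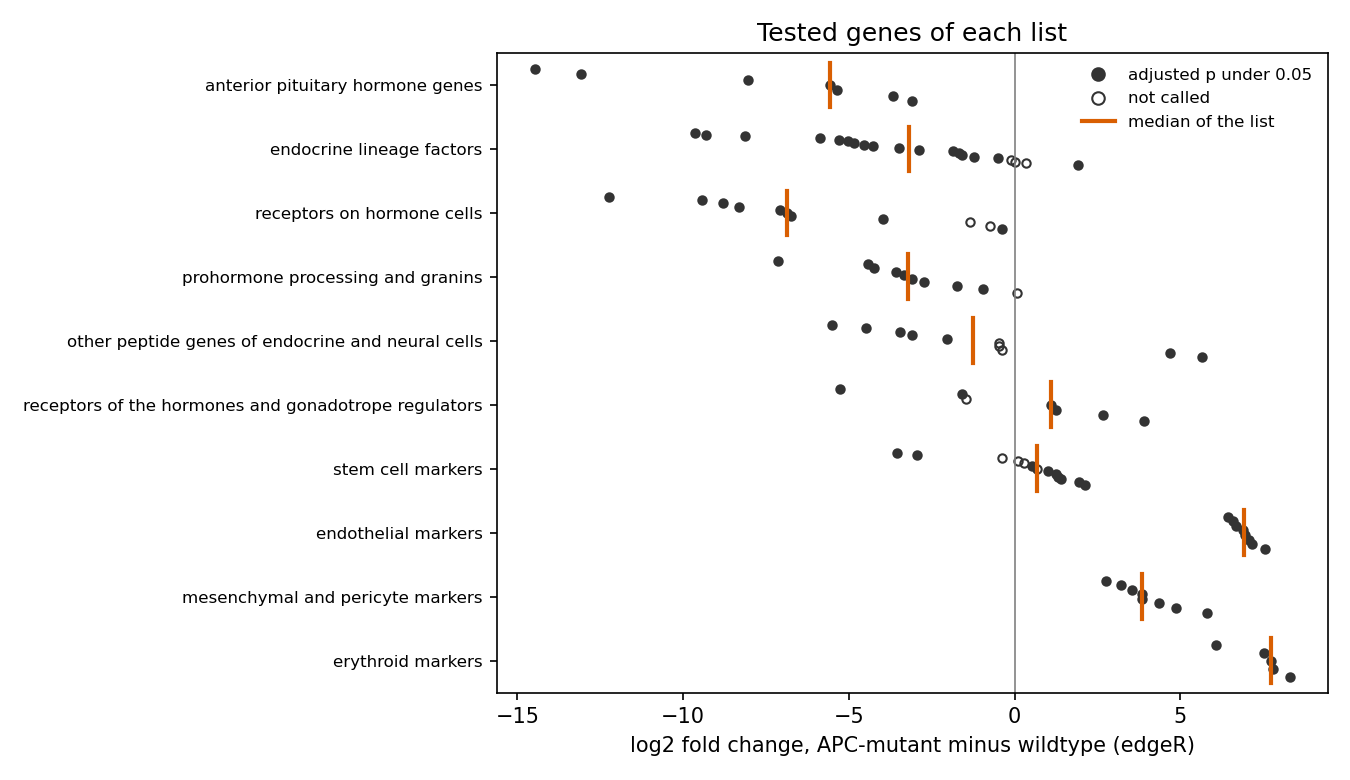
Log2 fold change, APC-mutant minus wildtype, of every tested gene in the hormone list and in related lists from the edgeR fit; filled points passed an adjusted p of 0.05, open points did not, and vertical bars are list medians. The hormone genes lie wholly to the left with a median of -5.56, as do most receptors and granule genes, while endothelial, mesenchymal and erythroid markers lie wholly to the right.

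Markers of several other cell types, though not of all, differed between genotypes. Over all tested genes 28.5% were called lower and 30.7% higher. Endothelial markers rose in 8 of 8 genes, with a summed level of 3871 to 5638 CPM in the mutant libraries and 9.72 to 76.3 CPM in wildtype. Erythroid markers rose in 5 of 5, at 2067 to 3968 and 1.21 to 35.2 CPM, mesenchymal and pericyte markers in 8 of 8, at 749.9 to 3349 and 110.0 to 276 CPM, and macrophage markers in 7 of 7, at 114 to 1017 and 16.9 to 46.0 CPM. Cdh5, Hbb-bt and Ptprc had no count in at least 1 wildtype library, and no marker of these lists was at 0 in all libraries of a genotype. Posterior lobe and glial markers were called in 0 of 6 genes, at a summed 55.1 to 129 and 27.3 to 372 CPM. Stem cell markers summed to 1444 to 1890.1 CPM in the mutant libraries and 1214.0 to 1617 CPM in wildtype. Of these 13 genes 2 fell, 7 rose and 4 were not called. Aldh1a2, the most abundant in wildtype, fell from 585 ± 137 to 75.6 ± 16.5 CPM, a log2 fold change of -2.95. Fstl1 rose from 153 ± 70.6 to 672 ± 104 CPM, a log2 fold change of 2.13. Sox2, which is not among the 4 most abundant of the list, was not called, at 38.0 ± 5.68 CPM in the mutant libraries and 35.3 ± 10.1 in wildtype. The part of these cell types in the fall of the hormone genes was not tested.

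Total counts ran from 18082332 to 27280761 per mutant library and from 15740857 to 25414443 per wildtype library, so 3 counts correspond to 0.113 to 0.198 CPM. Libraries of one genotype differed in the female-specific transcript Xist and in the summed level of 4 Y-linked genes. Mutant replicates 1, 2 and 6 had 219 to 253 CPM of the Y-linked genes and hardly any Xist, and mutant replicates 4 and 5 had 523 and 338 CPM of Xist. Wildtype replicates 2 and 4 held both, at 122 and 143 CPM of Xist and 99.3 and 122 CPM of the Y-linked genes, and the other wildtype libraries held mainly Xist. With the Y-linked level as a term, 7 of 7 hormone genes were still called lower.

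The wildtype libraries of the ROSAJC and ROSAE prefixes were compared because the labels do not say how they differ. Of the hormone genes 0 of 7 were called by edgeR, and 0 of 7 at an unadjusted p under 0.05, while 0.0485% of all tested genes were called (10 genes, and 1749 at an unadjusted p under 0.05). DESeq2 and limma voom also called 0 of 7. The log2 differences, ROSAE minus ROSAJC, were 0.03 ± 0.44 for Gh, 0.04 ± 0.53 for Prl, 0.42 ± 0.56 for Pomc, -0.69 ± 0.70 for Tshb, -0.65 ± 0.71 for Cga, 0.10 ± 0.53 for Lhb and 0.16 ± 0.69 for Fshb (SE). With 4 against 2 libraries these errors leave room for differences of over 2-fold in either direction for some genes, and a p that misses the threshold does not show that the prefixes are alike. Against the ROSAJC libraries alone and against the ROSAE libraries alone, 7 of 7 hormone genes were called lower in the mutant cells.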

How the data were processed

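Messenger RNA of FAC-sorted mouse pituitary cells was sequenced as read pairs after amplification, per the labels' protocols. The values the authors deposited are unscaled counts of fragments for each gene. The file headers name featureCounts 2.0.1, the GENCODE M33 annotation and GRCm39, unstranded, with pairs counted for every gene they overlap and multiply mapped pairs left out. Trim Galore 0.6.5, STAR 2.7.9a and DESeq2 are named in the submitters' processing notes. The header names 30 alignment files, and 11 columns were given and used. Symbols were matched by identifier for 51948 of 56941 rows. Groups follow the genotype label.

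All genes were fitted with edgeR 4.0.16 (filterByExpr, TMM, quasi-likelihood F test, Benjamini-Hochberg over the 20622 genes tested, called under 0.05), in R 4.3.3. Standard errors equal the size of the log2 fold change over the root of its F statistic. Within-library ratios were compared with exact two-sided permutation tests in scipy 1.17.1. Motifs were matched as letters. Alternatives were DESeq2 1.42.0, voom in limma 3.58.1, other scalings, filters and libraries. Scripts were tested on simulated data. No libraries agreed within sampling noise (chi-square per degree of freedom 13.4 to 84.3 over 25 pairs). Counting intervals and floors (95%, 3 counts) cover counting error only, since amplified fragments are not independent molecules.

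The hormone genes and lists were chosen with earlier results of these data known. From each list up to 4 tested genes with the highest wildtype mean were named, and for each hormone gene the 3 most alike genes by the measure given, leaving out Gm and Rik names. One lineage factor and one motif are not reported here.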

Additional observations from a re-analysis of the deposited data

Results flagged for a closer look

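Of 28 sets of values checked, each a measure in the libraries of one genotype, 2 had a sample far from the others, where chance flags about 1 in 20 groups. Prl stood at 0.159 CPM in mutant replicate 1, from 3 counts, and at 0 in the other 4 mutant libraries. Cga stood at 3590.1 CPM in wildtype replicate 3, where the next wildtype library had 1814 CPM and the gap took 0.72 of the range of the group.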

How the results depend on the processing

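The log2 fold changes of the 7 hormone genes kept their sign and their call under every alternative run. They ranged from -14.81 to -14.32 for Gh, -15.60 to -12.62 for Prl, -8.52 to -7.76 for Pomc, -5.73 to -4.85 for Tshb, -3.42 to -2.62 for Cga, -5.75 to -5.18 for Lhb and -4.39 to -3.36 for Fshb, and the largest adjusted p was 0.00978, for Cga. Leaving out each library in turn gave 11516 to 12094 called genes against 12218. Replicate numbers did not pair the libraries (correlations of deviations for same-numbered libraries from -0.13 to 0.05, none best with its own number). With the replicate block 10577 genes were called, against 11638 over the same libraries without it, and the 7 hormone genes were among them. The 10 genes called between wildtype prefixes became 29 with no filter, 74 with DESeq2, and 0 with voom or with the wildtype libraries alone, and 0 to 41 with a library left out; the cause was not tested. The ratio of Pomc to Tshb lost its call against ROSAJC libraries (-2.07) and without the least alike library of each genotype (-1.77), where the other 5 ratios kept theirs (adjusted p = 0.0190, exact permutation tests); the cause was not tested. Levels not divided by length put Prl below Tshb (-1.51) and Lhb level with Fshb (-0.00418), and coding transcript length, chosen after seeing the data, put Prl below Tshb (-2.20). Depth limits Prl, Lhb and Fshb in the mutant cells, with at most 42 counts per library.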
